A study of Homo sapiens with 6 samples.

Results

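Replication-dependent histone genes encode the bulk histones that package newly made DNA, and their transcripts were examined in LX-2 cells with and without overexpression of fibroblast activation protein α (FAP). Genes were taken by name: symbols beginning with H1-, H2AC, H2BC, H3C or H4C followed by digits, with pseudogenes and an antisense RNA left out. This gave 69 of the 60748 genes of the table, of which 9 were H1, 16 H2A, 17 H2B, 13 H3 and 14 H4 genes. Of these, H1-7, H1-8 and H1-10 carry a matching name but are linker histone genes expressed outside DNA replication, so results are also given for the other 66.

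LX-2 is an established human hepatic stellate cell line. Cells were infected with lentivirus carrying the vector GV367 alone (LX-2Vector, n = 3 libraries) or the FAP overexpression plasmid of that vector (LX-2FAP, n = 3 libraries), in which a ubiquitin promoter drives the insert beside EGFP and puromycin resistance. Both lines had been selected with puromycin as stable clones, whose number was not stated, and both were grown in DMEM with FBS and cultured for 24 h before total RNA was extracted. The labels do not say that the libraries came from separate cultures, so p-values measure only the spread between these libraries. Total counts ran from 17355700 to 26352060 per library. FAP itself was at 42 to 55 counts in the control libraries and at 14805 to 15160 counts in LX-2FAP, and its log2 fold change was 8.33 (edgeR adjusted p = 4.47e-16). Of 12 stellate cell and myofibroblast markers, 9 passed the filter on low counts, and edgeR called 3 lower in LX-2FAP (COL1A1, COL3A1 and PDGFRB) and 1 higher (VIM). Over all 18275 tested genes, 5.29% were called in either direction. The endothelial marker VWF was also called lower, at 12 to 74 counts per library. The part of these differences in the histone values was not tested. Vimentin (VIM) averaged 300.8 FPKM in LX-2Vector and TIMP1 131 FPKM, whereas LRAT, the retinol-esterifying enzyme of quiescent stellate cells, had no count and DES had 0.0114 FPKM. The hepatocyte marker ALB averaged 0.0297 FPKM in LX-2Vector and 0.0332 FPKM in LX-2FAP. The 5 hepatocyte markers listed, ALB among them, summed to a mean of 2.77 FPKM in LX-2Vector and 2.26 FPKM in LX-2FAP. Their sum was lower in every LX-2FAP library than in any control library. Only 1 of them was tested, with a log2 fold change of -0.28, and it was not called (edgeR adjusted p = 0.0809).

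Histones are made in large amounts while DNA is being copied, from small intronless genes that sit together in clusters. The mRNAs of these genes are unusual in that they end just after a short stem-loop rather than in a poly(A) tail. The stem-loop-binding protein SLBP and the U7 small nuclear ribonucleoprotein direct that cut, and the mRNAs are degraded when replication stops. Many of the genes also have longer, polyadenylated transcripts that run past the stem-loop. The labels describe rRNA-depleted libraries, while the published methods add isolation of poly(A) mRNA, which would select against transcripts that end at the stem-loop. The part of this step in the levels given here was not tested.

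In GENCODE release 29 (GRCh38), 53 of the 69 genes lie on chromosome 6 and 11 on chromosome 1, and H3C2 and H3C3 were not in that release. The histone 3′ stem-loop was searched on the transcript strand after the stop codon. It was found in 27 of the 31 members whose models hold at least 60 bases there, and in the shorter model of H4C11, giving 28 in all. H1-7, H1-8, H1-10 and H2BC11 had such a stretch without a match. Among 18677 other coding genes with such a stretch, 15 had a match (0.08%). Those 15 included histone genes outside the naming rule, by older names H2AFX, HIST3H2A, HIST3H2BB, HIST3H3 and HIST4H4. They also included AL031777.3, which overlaps H3C4 and H2AC7. The 16 bases took only 6 forms, and one form was shared by 15 members of the H2A, H2B and H3 classes. The stem-loops of the highly expressed members below, which show this shared 3′ end, are written 5′ to 3′ on the gene's strand with the 16 bases in capitals.
H2AC6 (chr6:26124664-26124689, plus strand): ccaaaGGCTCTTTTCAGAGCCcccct
H2BC5 (chr6:26158582-26158607, plus strand): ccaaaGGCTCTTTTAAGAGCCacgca
H2AC11 (chr6:27133510-27133535, plus strand): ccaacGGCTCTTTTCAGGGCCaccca
H3C10 (chr6:27810511-27810536, plus strand): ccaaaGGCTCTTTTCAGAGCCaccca
H4C9 (chr6:27139649-27139674, plus strand): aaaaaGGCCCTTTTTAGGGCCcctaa
H4C8 (chr6:26285126-26285151, minus strand): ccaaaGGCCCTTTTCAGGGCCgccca
The H2AC6 form is the one shared by 15 members, H2BC5 shares its form with H2BC4, H2BC7 and H3C8, and the forms of H4C9 and H4C8 were found only in H4 genes among the members. The annotated transcripts of 22 members run more than 50 bases past the stem-loop, by 1114 bases in H2AC6 and 1761 bases in H2AC11.

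The classes also differed at their promoters, taken from RefSeq (GRCh38.p14) for 64 of the 69 members as 250 bases before to 50 bases after the start. The octamer ATTTGCAT, the sequence bound by POU-domain factors such as POU2F1, was searched on both strands. It was present in 82.4% of H2B and 73.3% of H2A promoters, in 9.1% of H3 promoters and in no H1 or H4 promoter, against 1.8% of all 35116 promoters. The only H3 match was H3C4, whose window is the same as that of H2AC7. Windows of some H2A and H2B genes also overlap, such as those of H2AC6 and H2BC4. The same octamer can therefore be counted in more than 1 class. TATAAA on either strand was in 65.6% of member promoters and 11.5% of all promoters. CCAAT on either strand was in 84.4% of member promoters and 34.6% of all promoters, but in only 3 of 12 H4 promoters. The stretches below, from the most highly expressed H2B genes whose octamer and TATA lie at most 9 bases apart, show that arrangement with both elements in capitals.
H2BC12 (chr6:27146880-27146908, minus strand): ccttATTTGCATgagaggtccTATAtaaa
H2BC11 (chr6:27132818-27132846, minus strand): ccttATTTGCATaagcgattcTATAtaaa
H2BC21 (chr1:149886705-149886732, minus strand): cctaATTTGCATaaggtggtTATAaaag
H2BC8 (chr6:26216713-26216740, minus strand): ctttATTTGCATgaaaggccTATAaaag
The gap between the elements was 9 bases in H2BC12 and H2BC11 and 8 bases in H2BC21 and H2BC8. This close arrangement was not general to the class. The gap was 8 bases in H2BC18 but 12 in H2BC17, 64 in H2BC1, 82 in H2BC3 and 84 in H2BC4. H2BC5 had no octamer in its window. A match describes the letters in these windows and does not show binding.

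A few genes supplied most of the histone reads. On the FPKM scale, which corrects for gene length, H2BC12 stood at 45.8 ± 5.86 in LX-2Vector (SD, n = 3), above the other replication-dependent genes. It was followed by H1-2 at 27.6 ± 2.48, H2BC5 at 18.4 ± 1.51 and H2AC6 at 10.7 ± 1.27. H2BC11, H4C9, H2BC21, H4C8, H1-4 and H2AC11 formed a middle group with means over the 6 libraries of 2.27 to 7.04 FPKM. The neighbours H2BC11 and H4C9 overlapped in their library values. H2BC12, H1-2, H2AC6 and H2BC5 gave 54.65% of the counts of the 66 genes, and the first 10 genes gave 80.1%. At the other end, H1-8, H2AC1, H2AC15, H2BC1 and H4C7 had no count in any library, where a count of 0 allows at most 0.114 to 0.173 CPM per library. That limit does not hold for H2AC15. Of its 75-base stretches, 100% also occur in other genes, so its reads may have been assigned elsewhere or dropped. No H3 gene averaged more than 1.38 FPKM over the 6 libraries, the value of H3C10, and H3C3 and H3C2 followed at 1.16 and 0.613 FPKM.

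**Figure D1:**
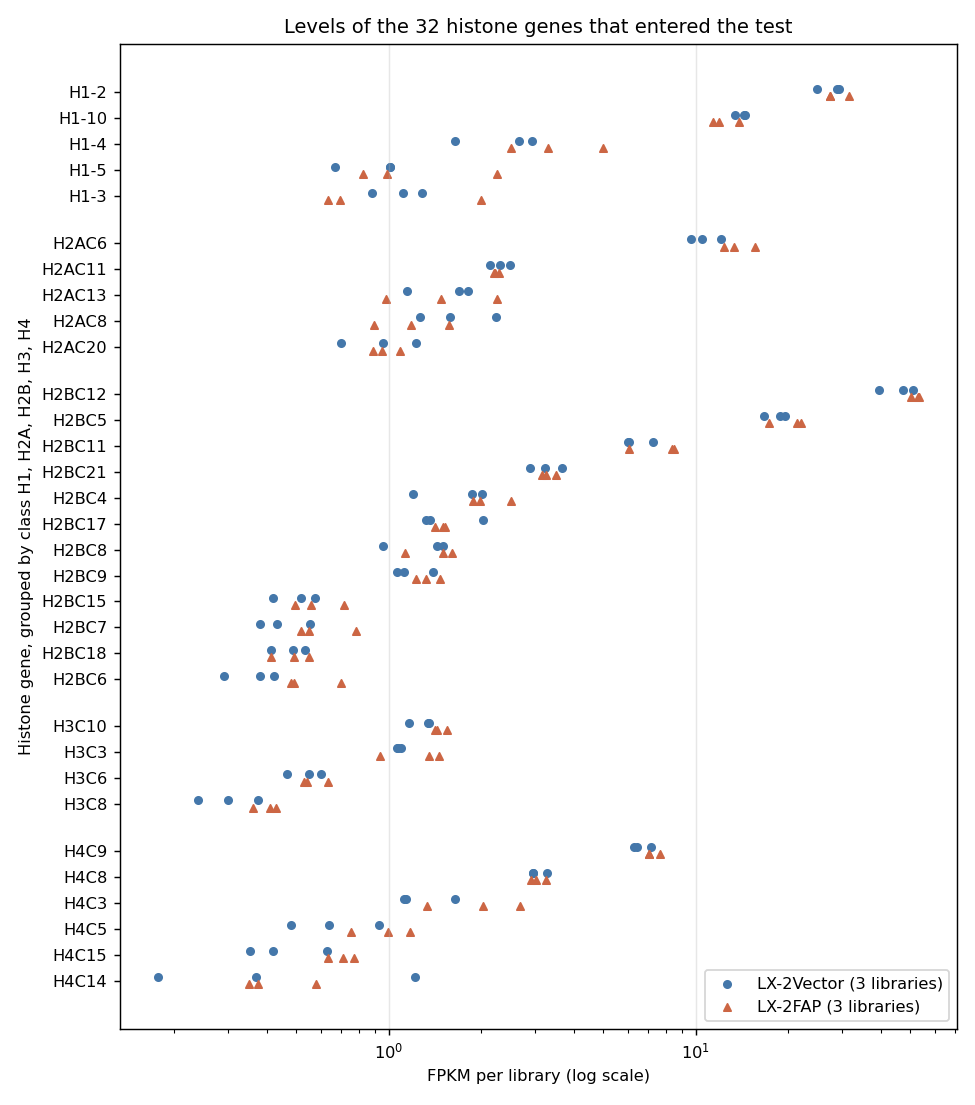
FPKM on a log scale (x axis) of the 32 histone genes that passed the filter on low counts (y axis, grouped by class), with 1 point per library, circles for LX-2Vector and triangles for LX-2FAP. H2BC12, H1-2, H2BC5, H1-10 and H2AC6 lie near or above 10 FPKM in all 6 libraries, and the H3 genes lie below 2.

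The median level was higher among genes of longer annotated length. Of the 66 genes, the 32 with a length under 600 bases in the table had a median of 0.283 FPKM, and 7 of them passed the filter on low counts. The 30 genes of 600 bases or more had a median of 0.965 FPKM, 24 passed, and together they held 78.53% of the summed counts. H2BC12, with 495 bases in the table, had the highest level. Other short genes, such as H4C3 (1.66 FPKM) and H2AC13 (1.56 FPKM), also lay above the median of the longer ones. The longest gene, H2BC15 with 5422 bases, had 0.546 FPKM. At equal FPKM a longer gene gives more counts, so passing the filter and the share of counts depend on length in themselves. The 22 genes whose models run more than 50 bases past the stem-loop held 46.2% of the summed counts. The part of the annotation in this relation was not tested.

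**Figure D2:**
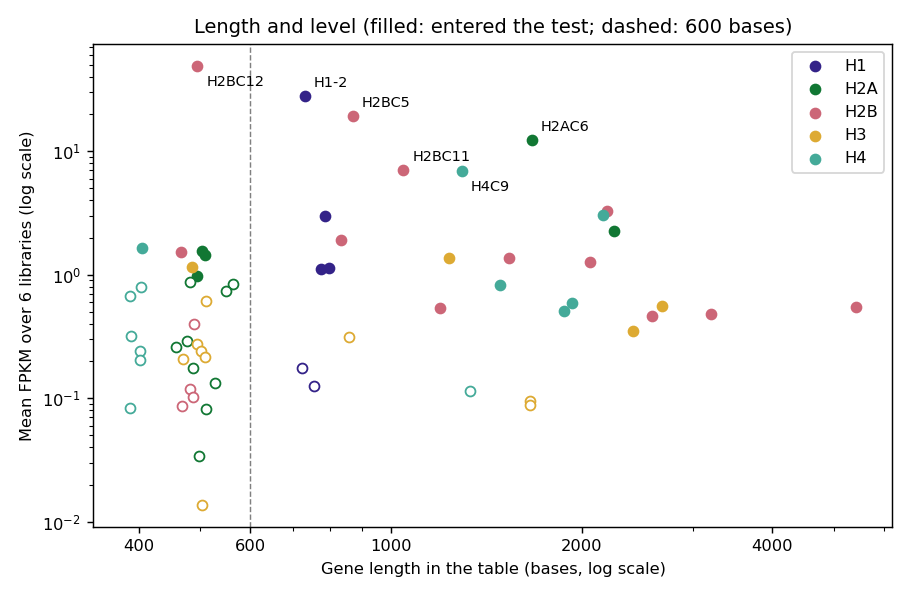
Gene length in the deposited table (x axis, bases, log scale) against mean FPKM over the 6 libraries (y axis, log scale) for the 62 replication-dependent histone genes with a count, coloured by class and filled where the gene entered the test. Left of the dashed line at 600 bases 7 of 32 points are filled, and right of it 24 of 30.

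Whether FAP overexpression changed these genes was then tested. In LX-2FAP, H2AC6 rose, and the other 31 tested members did not pass the test. Of the 69 members, 32 had enough counts to be tested with edgeR. One higher and none lower stand against 5.29% of all 18275 tested genes called, 2.57% higher and 2.73% lower, so the number called, 1 of 32, stood near the background. An unadjusted p under 0.05 was found for 5 of the 32 (15.6%), all with a positive log2 fold change, against 4054 of all 18275 tested genes (22.2%), which is the background for the counts at that threshold given below for other lists. The 37 members below the filter included 31 with fewer than 10 counts in every library, and no change of theirs was detectable at this depth.

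H2AC6 encodes a core histone H2A. It had 10.5, 12.1 and 9.62 FPKM in LX-2Vector replicates 1, 2 and 3 and 12.4, 15.6 and 13.3 FPKM in LX-2FAP replicates 1, 2 and 3. All LX-2FAP values lay above all LX-2Vector values, with LX-2Vector replicate 2 and LX-2FAP replicate 1 close to each other. The log2 fold change was 0.39 (SE 0.10, 95% interval 0.18 to 0.59, edgeR adjusted p = 0.0315) on counts of 338 to 499 per library. None of its 75-base words was shared with another gene. The call was lost without LX-2Vector replicate 1 (log2 fold change 0.37, edgeR adjusted p = 0.093), LX-2Vector replicate 3 (0.32, adjusted p = 0.0942), LX-2FAP replicate 2 (0.29, adjusted p = 0.148) or LX-2FAP replicate 3 (0.41, adjusted p = 0.121). It was also lost when limma-trend was run on FPKM in place of counts (adjusted p = 0.149 with 1 added before taking log2, and 0.143 with 0.1 added).

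H1-10, a replacement linker histone gene with a matching name, had 14.5, 13.4 and 14.3 FPKM in LX-2Vector and 13.9, 11.9 and 11.3 FPKM in LX-2FAP. LX-2FAP replicate 1 lay within the control values and replicates 2 and 3 below them. The log2 fold change of -0.16 with SE 0.08 did not pass (edgeR adjusted p = 0.272). H1-7 stayed below the filter on low counts.

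The replication-dependent linker histone genes did not pass. H1-2, the main one, had 24.8, 28.8 and 29.3 FPKM in LX-2Vector and 27.4, 27.4 and 31.6 FPKM in LX-2FAP, so the groups overlapped. Its log2 fold change was 0.10, with a 95% interval of -0.08 to 0.27. H1-4 and H1-5 each had a log2 fold change of 0.66, among the 3 largest of the tested members. In both, LX-2FAP replicate 3 was the high library, at 4.97 FPKM for H1-4 and 2.25 FPKM for H1-5, whereas LX-2FAP replicates 1 and 2 lay at 3.31 and 2.51 FPKM for H1-4 and at 0.985 and 0.826 FPKM for H1-5. The edgeR adjusted p was 0.128 for H1-4 and 0.298 for H1-5. Without LX-2FAP replicate 3 the log2 fold changes fell to 0.36 for H1-4 and 0.09 for H1-5, so the size of both rests largely on that library. Without LX-2Vector replicate 1, the value for H1-4 was 0.41. The 3′ ends of these genes could be compared only in part, as the models of H1-2 and H1-5 hold no base after the stop codon.

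Of the other H2A genes, H2AC11 was level between the groups. It had 2.14, 2.48 and 2.30 FPKM in LX-2Vector and 2.22, 2.19 and 2.28 FPKM in LX-2FAP. The log2 fold change of -0.01 had a 95% interval of -0.26 to 0.24, which leaves room for changes smaller than that of H2AC6. H2AC13 (log2 fold change 0.03, SE 0.31) and H2AC8 (-0.44, SE 0.31) had only 9 to 24 counts per library. H2AC13 shares 60.1% of its 75-base words with H2AC14, so its reads may be split.

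The H2B class held the largest number of tested genes, 12 of 17, and none passed. H2BC12 had 50.9, 47.1 and 39.4 FPKM in LX-2Vector and 50.3, 53.0 and 53.5 FPKM in LX-2FAP. On that scale LX-2Vector replicate 1 lay above LX-2FAP replicate 1, whereas on the TMM-scaled CPM scale these libraries stood at 25.1 and 25.2 and the groups did not overlap by a narrow margin. The log2 fold change was 0.21 (95% interval 0.03 to 0.39, edgeR adjusted p = 0.147). H2BC12 shares 50.5% of its 75-base words with other H2B genes, so part of its reads could have been assigned elsewhere or dropped. Those words come from its release 29 model of 381 bases, whereas its length in the table is 495, so the share over the counted bases is not known.

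H2BC5 and H2BC11 followed a like order of libraries. H2BC5 had 19.6, 18.9 and 16.7 FPKM in LX-2Vector and 17.3, 22.0 and 21.3 FPKM in LX-2FAP. H2BC11 had 7.26, 6.004 and 6.08 FPKM in LX-2Vector and 6.04, 8.49 and 8.38 FPKM in LX-2FAP. In both genes LX-2FAP replicate 1 lay within the control values while replicates 2 and 3 lay above them. The log2 fold changes were 0.16 (SE 0.10, edgeR adjusted p = 0.37) for H2BC5 and 0.25 (SE 0.14, adjusted p = 0.301) for H2BC11. Without LX-2FAP replicate 1, H2BC11 was called (log2 fold change 0.41, edgeR adjusted p = 0.0413). That fit called 1949 of all 18794 tested genes, against 967 of 18275 with every library. The same share is the background for the list counts without that library given below.

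No H3 or H4 gene passed, and the H3 genes were low. H3C10 had 1.17, 1.35 and 1.34 FPKM in LX-2Vector and 1.44, 1.55 and 1.41 FPKM in LX-2FAP, without overlap but with a log2 fold change of 0.22 whose 95% interval ran from -0.17 to 0.61. H3C3 had a log2 fold change of 0.21 (SE 0.31). H4C9, the highest H4 gene, had 7.16, 6.46 and 6.27 FPKM in LX-2Vector and 7.03, 7.63 and 7.06 FPKM in LX-2FAP. Its log2 fold change was 0.15 (95% interval -0.06 to 0.35), and those of H4C8 and H4C3 were 0.03 (-0.19 to 0.26) and 0.63 (-0.06 to 1.33).

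The most positive and the most negative log2 fold change of the tested members both belonged to H4 genes on chromosome 1 that share sequence. H4C15 had 18, 21 and 17 counts in LX-2Vector and 33, 27 and 26 in LX-2FAP, a log2 fold change of 0.66 with SE 0.25 (edgeR adjusted p = 0.125). H4C14 had 60, 12 and 7 counts in LX-2Vector and 17, 12 and 23 in LX-2FAP, a log2 fold change of -0.52 with SE 0.48 (edgeR adjusted p = 0.577). Of their 75-base words, 96.2% to 97.1% also occur in another gene, each other among them, so reads cannot be placed between them with certainty, and the H4C14 value turned to 0.75 without LX-2Vector replicate 1. Summed over both genes, the level was 2.95, 1.88 and 1.13 CPM in the LX-2Vector libraries and 2.09, 2.17 and 2.34 CPM in the LX-2FAP libraries, so the LX-2FAP libraries lay inside the control range.

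**Figure D3:**
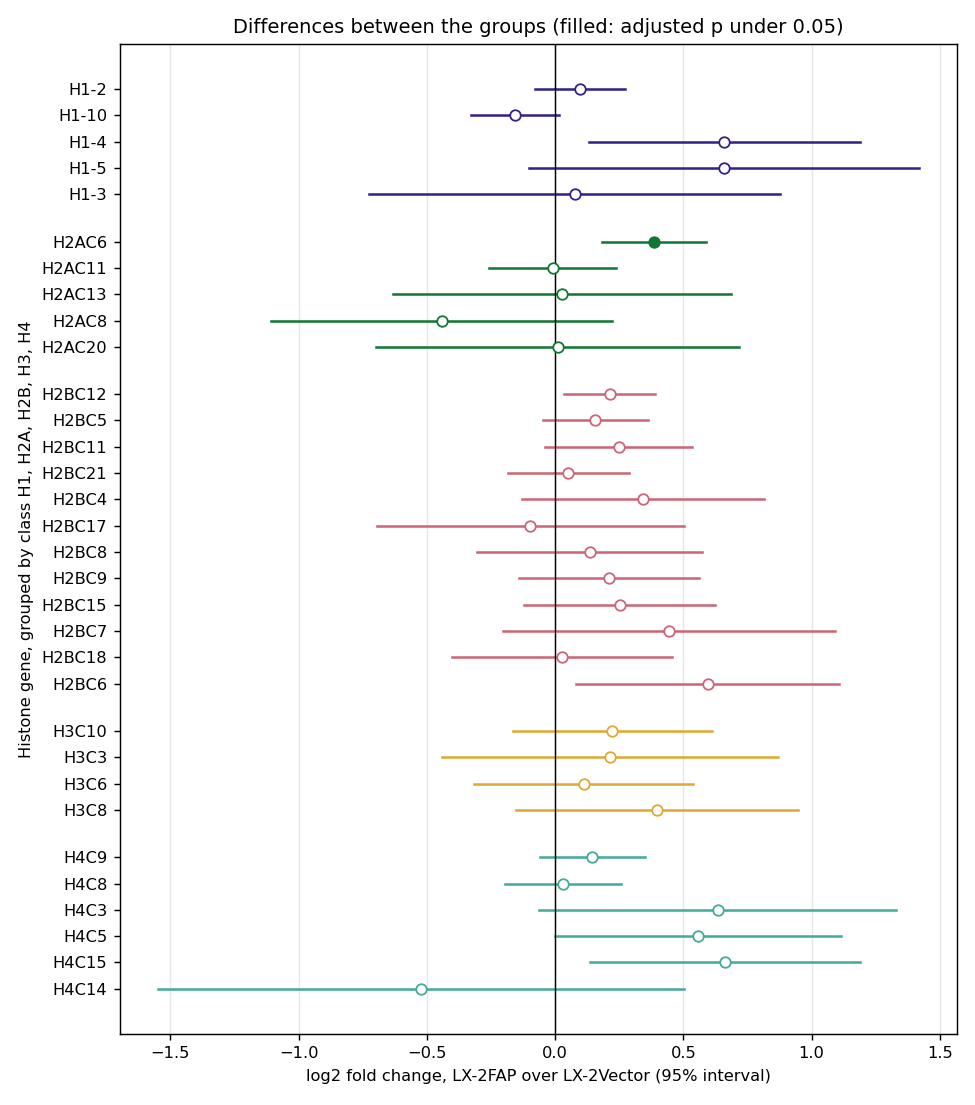
Log2 fold change of LX-2FAP over LX-2Vector (x axis) with its 95% interval for the 32 tested histone genes (y axis, grouped by class), filled where the edgeR adjusted p was under 0.05. Only H2AC6 (0.39) is filled, and most open points lie right of 0 with intervals that cross it.

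Most tested genes nevertheless had a small positive log2 fold change. Leaving out H1-10, 27 of the 31 tested genes were above 0 with a median of 0.21, whereas 47.0% of all tested genes were above 0 with a median of -0.01. By class, the value was above 0 in 4 of 4 H1, 3 of 5 H2A, 11 of 12 H2B, 4 of 4 H3 and 5 of 6 H4 genes. These genes share libraries and, in part, sequence, and are not independent. The 31 genes with a count that stayed below the filter did not show the same, with 15 above 0 and a median of -0.11 when every gene with a count was fitted.

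The highest values lay mostly in LX-2FAP replicates 2 and 3. Of the 32 tested members, 13 had their highest CPM in the LX-2FAP libraries replicate 2, 12 in replicate 3 and 0 in replicate 1, where all tested genes gave 20.1%, 15.5% and 10.1%. With each library left out in turn, 73.5% to 90.6% of the tested replication-dependent genes were above 0 and the median ran from 0.10 to 0.25. The lowest median came without LX-2FAP replicate 3. With library size alone in place of TMM, 24 of 31 were above 0 and the median of all genes was -0.04.

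Counted by whether the groups overlapped in CPM, 5 members lay wholly higher in LX-2FAP, namely H2AC6, H2BC12, H2BC6, H3C10 and H4C15, and 0 lay wholly lower. The shares of all tested genes were 13% and 13.4%, so non-overlap was near the background among the higher members (5 of 32) and below it among the lower ones. At the looser cutoff of the study (more than 1.2-fold at an unadjusted p under 0.05; whether its p was adjusted is not stated), H2AC6, H1-4, H2BC6 and H4C15 were higher and 0 members were lower. All tested genes reached that cutoff in 1.45% of cases upward and 6.44% downward. Members at that cutoff, 4 in all, became 9 when the first LX-2FAP library was left out and 7 when the third LX-2Vector library was. The share of all genes at that cutoff is given for the full set of libraries alone, so these counts stand without a background. At an adjusted p under 0.05, edgeR called 1949 of 18794 tested genes without the first LX-2FAP library. Without the third LX-2Vector library it called 395 of 18652.

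Summed levels were slightly higher in LX-2FAP. All 69 members together summed to 165.8, 166.8 and 152.8 CPM in the LX-2Vector libraries and 168.2, 184.9 and 185.7 CPM in the LX-2FAP libraries, and the log2 ratio of the means was 0.15. Without H1-7, H1-8 and H1-10, the sum was 143.9, 146.7 and 131 CPM in the LX-2Vector libraries and 147.0, 166.5 and 168.3 CPM in the LX-2FAP libraries. In both sums LX-2Vector replicate 2 lay just below LX-2FAP replicate 1, so on the TMM-scaled CPM scale the groups did not overlap by a narrow margin. They did overlap as shares of all counts, where the 69 members made up 0.0169% in LX-2Vector replicate 2 and 0.0167% in LX-2FAP replicate 1, and as summed FPKM, at 175.3 in LX-2Vector replicate 1 and 173.2 in LX-2FAP replicate 1. The log2 ratio for the 66 genes was 0.19.

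Among the classes, the H2A sum did not overlap between groups, at 25.1 to 28.7 CPM in the LX-2Vector libraries and 29.8 to 34.5 CPM in the LX-2FAP libraries, and most of it was H2AC6. The H2B sum was 64.8 ± 6.42 CPM in the LX-2Vector libraries and 74.3 ± 6.27 CPM in the LX-2FAP libraries, and the H4 sum was 19.7 ± 1.87 and 21.7 ± 1.08 CPM (SD, n = 3 each). The H3 sum was 5.67 ± 0.228 and 6.27 ± 0.750 CPM, and that of H1-1 to H1-6 was 23.7 ± 2.52 and 26.3 ± 4.04 CPM. The H2B, H3, H4 and H1-1 to H1-6 sums overlapped between the groups. No test was made on the sums. In bulk RNA, a change in the share of cells in S phase and a change in histone RNA per cell cannot be told apart.

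**Figure D4:**
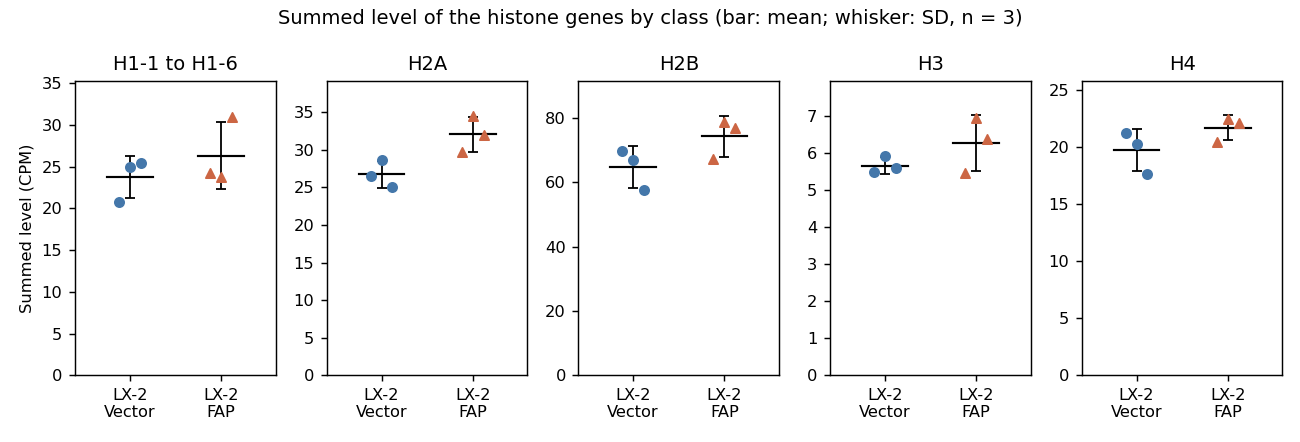
Summed level (y axes, CPM scaled by TMM, each from 0) of H1-1 to H1-6 and of the H2A, H2B, H3 and H4 genes in each library of LX-2Vector and LX-2FAP, with the mean as a bar and the SD as a whisker (n = 3). The H2A sum is higher in every LX-2FAP library than in any LX-2Vector library, and the other sums overlap.

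Small RNAs without a poly(A) tail and mitochondrial rRNA were summed beside the histones because library selection bears on them. Of 17 such small RNA genes, 8 had a count, 5 were tested and none was called by edgeR (2 with an unadjusted p under 0.05). They summed to 117.6, 118.6 and 92.5 CPM in the LX-2Vector libraries and 84.4, 94.8 and 108.8 CPM in the LX-2FAP libraries, nearly all from RN7SL1, the RNA of the signal recognition particle. The highest and the lowest of these sums were not in the libraries with the highest and the lowest histone sums. Mitochondrial rRNA ran from 5689 to 6015 CPM in the LX-2Vector libraries and from 5552 to 5855 CPM in the LX-2FAP libraries. The part of library selection in the histone differences was not tested.

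Histone variants listed here as replication-independent ranged widely in level. On the FPKM scale, H3-3B and H2AZ1 lay above every replication-dependent gene, whereas CENPA (15.7 over the 6 libraries), H3-3A (14.7) and MACROH2A2 (0.719) lay below H2BC12, H1-2 and H2BC5. H3-3B, which encodes the replacement histone H3.3, had 123, 128 and 119 FPKM in LX-2Vector and 128, 139 and 137 FPKM in LX-2FAP. It rose by a log2 fold change of 0.16 with SE 0.04 (edgeR adjusted p = 0.0466), although LX-2FAP replicate 1 stood at the level of LX-2Vector replicate 2 on that scale. H3-3A, the other H3.3 gene, had a log2 fold change of 0.04 (adjusted p = 0.664), and H2AZ1 0.14 (adjusted p = 0.147). Of the 11 variants, 1 was called higher and 0 lower by edgeR, and 3 had an unadjusted p under 0.05 (27.3%). The call was lost when the first or the third LX-2Vector library or the second or the third LX-2FAP library was left out, and 2 variants were called without the first LX-2FAP library.

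Genes that make, process and cut histone mRNA did not pass the test. Of 24 listed, 23 were tested and edgeR called none, while 2 had an unadjusted p under 0.05 (8.7%). The smallest adjusted p, 0.0797, belonged to COIL, which encodes the coilin scaffold of Cajal bodies, with 14.3, 16.3 and 16.2 FPKM in LX-2Vector and 16.8, 17.9 and 17.1 FPKM in LX-2FAP. SLBP, the stem-loop-binding protein, had a log2 fold change of -0.01 (SE 0.04), and NPAT, the coactivator of histone genes in S phase, one of 0.07 (SE 0.05). RNU7-1, the U7 RNA, was listed at 0 in all libraries.

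Histone chaperones, which carry new histones to DNA, showed no call in 21 tested of 22 listed, with 7 at an unadjusted p under 0.05 (33.3%). ASF1A had 14.04, 15.9 and 14.2 FPKM in LX-2Vector and 15.7, 17.8 and 17.01 FPKM in LX-2FAP, a log2 fold change of 0.22 with SE 0.06 (edgeR adjusted p = 0.0549). TONSL, a reader of new histone H4, had a log2 fold change of -0.21 (SE 0.06, adjusted p = 0.0677). Called chaperones numbered 2 when the first LX-2FAP library was left out and 1 when the second LX-2Vector library was.

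S-phase genes, which are normally expressed together with the histones, had no call upward and 4 downward among 38 tested. Of all 18275 tested genes, 2.57% were called higher and 2.73% lower. In the list, 13 genes had an unadjusted p under 0.05 (34.2%), against 22.2% of all tested genes. LIG1, the ligase that joins Okazaki fragments, had 8.27, 8.22 and 8.37 FPKM in LX-2Vector and 7.25, 6.24 and 6.76 FPKM in LX-2FAP, a log2 fold change of -0.26 with SE 0.06 (edgeR adjusted p = 0.0184). MCM7, a subunit of the replicative helicase, fell by 0.27 on the log2 scale (adjusted p = 0.035), and TK1, thymidine kinase, by 0.19 (adjusted p = 0.0202). E2F1, a transcription factor of the G1/S transition, fell by 0.20 (adjusted p = 0.0359). Leaving out the first or the third LX-2Vector library or the second or the third LX-2FAP library left 0 of these calls, whereas 2 were made without the second LX-2Vector library and 8 without the first LX-2FAP library. Over the list the median log2 fold change was -0.03 and 34.2% of values were above 0, whereas the 31 histone genes had a median of 0.21. The difference between these lists was not tested.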

How the data were processed

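RNA-seq of 6 LX-2 libraries was analysed, 3 LX-2Vector and 3 LX-2FAP, grouped by sample title. The authors aligned reads with HISAT2 2.0.5, counted them per gene with featureCounts 1.5.0-p3 and deposited whole-number counts, not normalized, and FPKM values computed from count and gene length. The submitters' notes name hg18 and give no annotation release or strand setting, although 58337 Ensembl identifiers were in GENCODE release 29 (GRCh38), which was used here for coordinates, stem-loops and shared words. Without strand, reads of overlapping genes (an antisense RNA covers 22.9% of the H1-10 exons) cannot be told apart.

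Counts were tested with the edgeR 4.0.16 quasi-likelihood test after TMM normalization, with a filter (minimum count of 10, minimum total of 15) that kept 18275 genes and no covariate. Tests were 2-sided, and genes whose Benjamini-Hochberg adjusted p (over all genes tested) was under 0.05 were called. SEs and 95% intervals came from that fit. With 3 libraries against 3, an exact permutation test cannot give a p below 0.1. CPM was scaled by TMM, and summed levels had no test. The floor of a count of 0 was set at 3 counts and covers counting error only. Replicates differed beyond counting noise (chi-square over its degrees of freedom, 2.05 to 4.88).

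One gene that matches the naming rule is not reported here and enters no count of members or lists. The members and all gene lists were chosen with earlier results of these data known. Named genes are FAP, the 3 members of highest mean FPKM per class, called members, the 3 largest log2 fold changes in each direction, and list genes, called ones and those of smallest p first. SLBP, NPAT, RNU7-1, H3-3A, H2BC6, H2BC21, H2BC8, CENPA, MACROH2A2 and the cell markers were named after their values were seen. Alternatives were scaling by library size alone or by DESeq2 size factors, the Wald test of DESeq2 1.42.0, no filter, 10 counts in every library, limma-trend 3.58.1 on log2(FPKM + 1) and log2(FPKM + 0.1), a replicate block and each library left out. Leaving out H1-7, H1-8 and H1-10, and the direction of the members in each setting, were chosen after seeing the data. The test was checked on simulated counts. Gene Ontology and KEGG columns of the table were not used.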

Additional observations from a re-analysis of the deposited data

How the results depend on the processing

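With the replicate number as a block, 1 member was called, and 975 genes in all. The numbers share only a name, since same-numbered libraries deviated with correlations of -0.039, 0.044 and -0.01. The block changed no call among the members, and gave 1 called chaperone and 6 S-phase genes in place of 0 and 4. Members called ranged from 0 to 2 with each library left out (higher 0 to 2), H2A 0 to 1 and H2B 0 to 1, variants 0 to 2, chaperones 0 to 2, S-phase genes 0 to 8, and all genes from 26 (without LX-2FAP replicate 3) to 1949 (without LX-2FAP replicate 1). Members at the study cutoff ranged from 3 to 9, the cause of which was not tested. The share of all genes at that cutoff was not worked out for the alternatives. Limma-trend on both log2 FPKM scales called 0 members, 0 variants and 0 S-phase genes, and 2 genes in all. Members at the study cutoff were 2 with DESeq2, 7 without a filter and 1 with limma-trend on log2(FPKM + 1). No filter gave 2 members higher, H1-4 being added, with 1 in H1. Chaperones called were 1 with DESeq2, its size factors or library size alone and 2 without a filter. S-phase genes were 7 with library size alone and 7 without a filter, and variants 0 with library size alone and 2 without a filter. Without H1-7, H1-8 and H1-10, 1 member was called, and the log2 ratio of sums was 0.19 for all and 0.15 for H1. Some log2 fold changes turned sign. With single libraries left out, H2AC11 ranged from -0.06 to 0.04 (0.0015 without LX-2FAP replicate 2), H2AC13 from -0.30 to 0.24 (-0.11 when LX-2Vector replicate 2 was dropped), H4C8 from -0.01 to 0.08 and H4C14 from -0.95 to 0.75, the last without LX-2Vector replicate 1. H2AC13 was -0.00065 with library size alone and -0.0096 and -0.03 with limma-trend, where H4C8 was -0.00026 and -0.00028. The median SE of the log2 fold change was 0.21 over the tested members and 0.09 over all tested genes, and the 37 members below the filter had no test.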

Other observations

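Histone genes outside the naming rule gave further values, named after they were seen. H2AW, an H2A gene whose older name is HIST3H2A and whose model holds the stem-loop, had 3.01, 3.22 and 2.70 FPKM in LX-2Vector and 3.28, 4.41 and 3.53 FPKM in LX-2FAP. The groups did not overlap, and its log2 fold change was 0.35 (SE 0.16, edgeR adjusted p = 0.218). For H4-16 the log2 fold change was -0.13 (SE 0.20, edgeR adjusted p = 0.793), and H3-2 one of 0.04 (SE 0.10, adjusted p = 0.875). H2AX, a variant gene that also carries the stem-loop and a long transcript past it, averaged 38.8 FPKM in LX-2Vector with a log2 fold change of -0.04 (SE 0.06, adjusted p = 0.745). The pseudogene H3P6 was above every replication-dependent H3 gene on the FPKM scale, with a mean of 17.3 over the 6 libraries. Words that it shares with other genes, H3-3A and H3-3B among them, were not searched, so the origin of its reads was not tested.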
